A study of Mus musculus with 2 samples.

Results

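The genes described here encode the enzymes and transporters of glycolysis, of pyruvate entry into mitochondria and of the pentose phosphate pathway. They were given as 37 gene symbols, and all probe sets that the platform annotation assigned to exactly 1 of these genes were taken. This found 33 of the 37 genes, with 71 probe sets, among 18194 genes that have such a probe set. Gpi1, Eno1, Mpc2 and G6pdx were not analysed here. For Gapdh the only such probe sets were 3 array controls, which are given but not counted, so 32 genes entered the counts. The study measured mouse embryonic stem cells, pluripotent cells of the early embryo, of genotype MOF +/+ (wild type) and MOF-/- (Mof null), both of strain C57BL/6. Mof, gene symbol Kat8, encodes an acetyltransferase that modifies histone H4. The lines were derived from embryos at 3.5 dpc, grown with LIF on fibroblast feeders (MEF), kept off feeders for 2 passages, and used at passage 15 to 18. Total RNA of each genotype was hybridised to 1 Affymetrix array, so there was no replicate and no test, and every statement describes these 2 arrays.

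Glycolysis splits glucose into pyruvate with a net gain of ATP, and lactate dehydrogenase turns pyruvate into lactate when it is not burned in mitochondria. The pyruvate dehydrogenase complex commits pyruvate to the citric acid cycle, and its kinases switch the complex off. The pentose phosphate pathway branches off at glucose-6-phosphate and supplies NADPH and ribose for nucleotides. Embryonic stem cells are known for high glycolytic activity. Many steps are run by several isozymes from separate genes, of which some are widely expressed and others are typical of muscle, brain or liver. Several of the genes are textbook targets of HIF, the transcription factor of the response to low oxygen.

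Values are RMA values on a log2 scale, and differences are given as Mof null minus wild type, by the labels of the arrays. A gene took the value of its brightest probe set, and was called expressed when its higher value reached 6.02, the median of all values. All 32 genes passed, but Slc16a3, Eno2 and Pdk2 passed on 1 array only, so these 3 had to differ and their differences are no support for a pattern. Apart from Slc16a3, the genes counted below as 2-fold higher were above the filter on both arrays. Values on the 2 arrays ran from 2.77 to 14.65 and from 2.85 to 14.67, with medians of 6.02 and 6.01. Kat8 itself, with 1 probe set, had 8.06 on the wild type array and 8.37 on the Mof null array. The labels do not say which exons were deleted, so this value does not check them. All 15 stem cell markers were above the level filter on both arrays, and so were all 21 measured markers of fibroblasts, the feeder cell type. Probe sets of a gene disagreed with a pooled SD of 0.33 in their differences, over 5362 genes with more than 1 expressed probe set. For 15 of the genes described here this SD was 0.28. It is a spread between probe sets, which can read different transcripts, and holds no variation between cultures.

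Among the 32 genes, 3 transporters, 3 genes of upper glycolysis and the kinase gene Pdk1 were at least 2-fold higher in the sample labelled Mof null. Of the 32 genes, 23 had a positive and 9 a negative difference, and the median difference was 0.35 (SD over genes 0.76). Over all 12015 expressed genes the median was 0.10 (SD 0.81). Slc2a1, Slc16a1, Slc16a3, Hk2, Pfkp, Aldoc and Pdk1 were at least 2-fold higher, 7 of 32, against 5.09% of all expressed genes. Only Eno2 was at least 2-fold lower, 1 of 32, against 11.9% of all expressed genes. Slc16a3 and Eno2 passed the level filter on 1 array only and had to differ, so their calls are no support. Of the 32 genes, 29 passed on both arrays, as did 11050 of the 12015. A further 18 of the 32 differed by less than 0.5 log2 units. By group, 3 of the 4 transporters, 3 of 10 genes of upper glycolysis (hexokinase to triosephosphate isomerase) and 1 of 7 genes of pyruvate entry were at least 2-fold higher. None of the 8 counted genes from phosphoglycerate kinase to lactate dehydrogenase and none of the 3 pentose phosphate genes was 2-fold higher. The group medians were 1.28, 0.41, 0.24, 0.34 and -0.03 in that order. The transporter count and median include Slc16a3, and 3 of those 4 genes passed on both arrays.

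**Figure D1:**
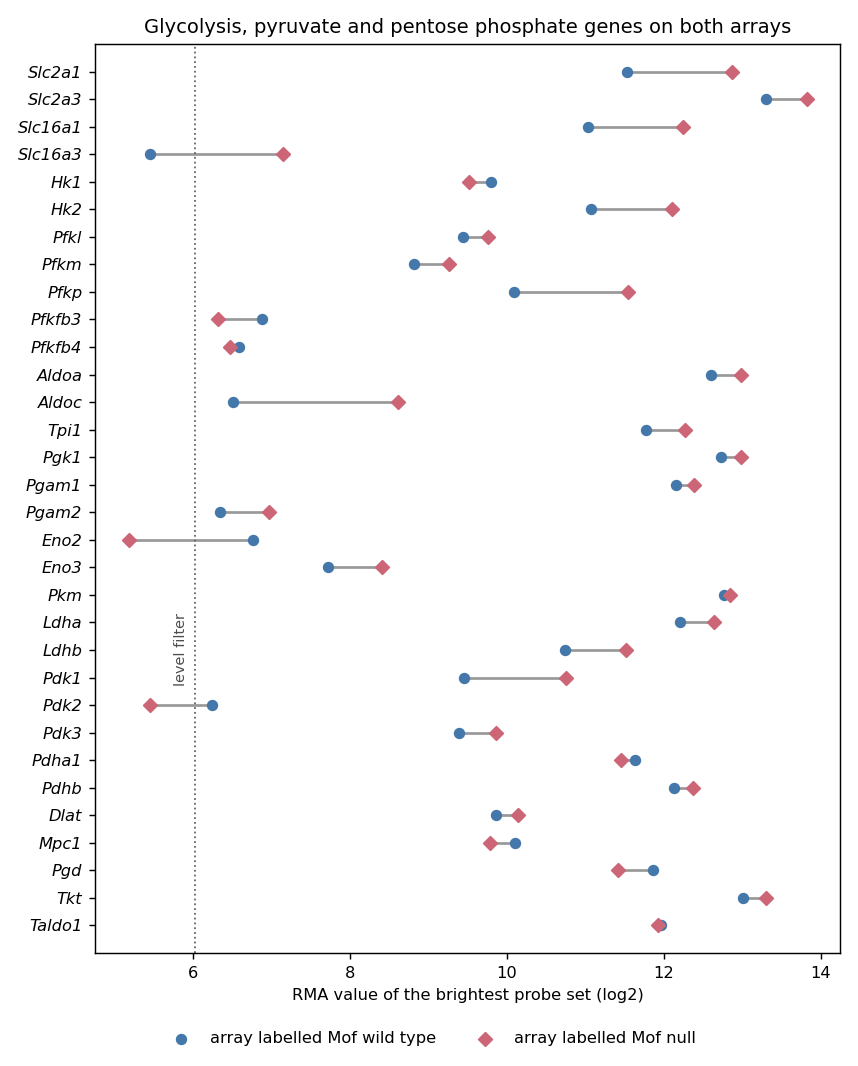
RMA values (log2) of the 32 counted genes on the arrays labelled Mof wild type (circles) and Mof null (diamonds), 1 array each, ordered from uptake to the pentose phosphate pathway; the dotted line is the level filter at 6.02. The longest lines are those of Aldoc (6.50 to 8.61), Slc16a3 (5.45 to 7.15) and Eno2 (6.76 to 5.18), while Pkm and Taldo1 nearly coincide.

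Many of these genes are abundant, and abundant genes differ less on these arrays, so the counts were also read by level. Of 19 genes with a mean level of at least 10, 5 were at least 2-fold higher and 0 were lower by that much. Among the 3262 expressed genes at that level, 2.48% were higher and 8% were lower by that rule. Of the 13 genes under 10, 2 were higher and 1 was lower, against 6.06% and 13.3% of 8753 expressed genes at that level. Of these 13, 10 passed the level filter on both arrays, as did 7788 of the 8753. Slc16a3, counted as higher, and Eno2, counted as lower, passed on 1 array only and had to differ. The median difference was 0.38 for the 19 abundant genes and 0.15 for all abundant genes, and 0.32 and 0.08 at the lower level.

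**Figure D2:**
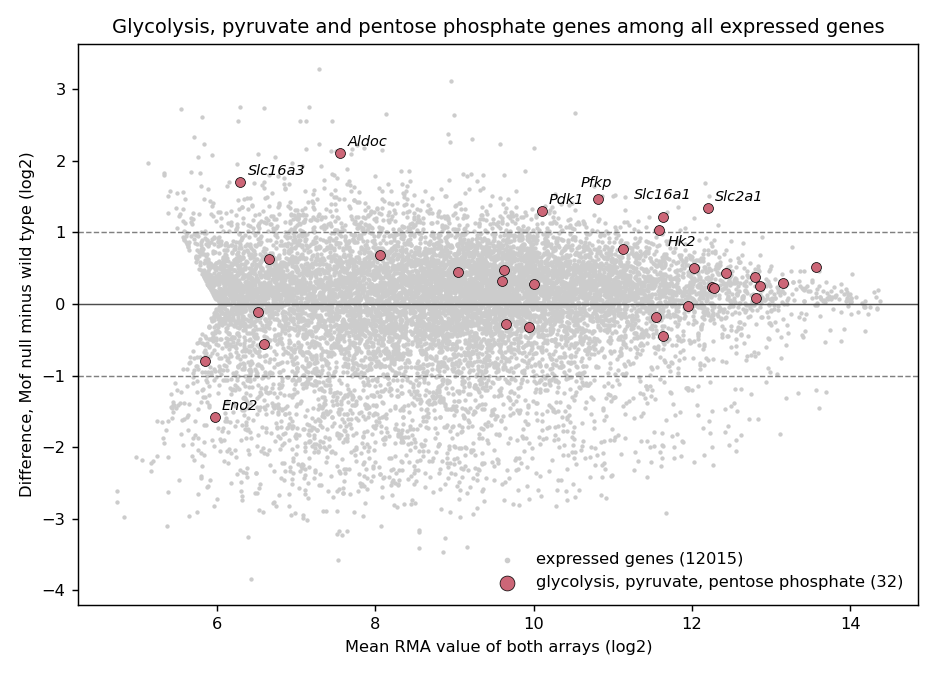
Difference (Mof null minus wild type, log2) against the mean RMA value of both arrays (log2) for 12015 expressed genes (grey) and the 32 counted genes (red); dashed lines mark 2-fold. The named genes are past 2-fold: 7 lie above the upper line and Eno2 lies below the lower line.

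The promoters shown are of genes past 2-fold, chosen because several carry the short motif that HIF binds. They are not a fair sample of the genes described here. The sequences are from RefSeq (GRCm38.p6), each from 250 bases before to 50 bases after a transcription start, read along the gene's strand. Capitals mark the HIF core, ACGTG or GCGTG, on either strand. Shown are Slc2a1 (chr4:119108495-119108794, plus strand), Slc16a3 (chr11:120948817-120949116, plus), Aldoc (chr11:78322823-78323122, plus), Pdk1 (chr2:71872974-71873273, plus) and Eno2 (chr6:124769624-124769923, minus). For Aldoc and Pdk1, with 2 listed starts each, the upstream start is shown.
Slc2a1: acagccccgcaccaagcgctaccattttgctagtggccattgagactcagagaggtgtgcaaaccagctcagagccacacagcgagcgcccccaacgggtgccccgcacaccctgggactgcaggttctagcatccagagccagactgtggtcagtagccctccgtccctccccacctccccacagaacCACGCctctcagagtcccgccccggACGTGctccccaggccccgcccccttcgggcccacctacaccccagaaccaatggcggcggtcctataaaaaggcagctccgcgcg
Slc16a3: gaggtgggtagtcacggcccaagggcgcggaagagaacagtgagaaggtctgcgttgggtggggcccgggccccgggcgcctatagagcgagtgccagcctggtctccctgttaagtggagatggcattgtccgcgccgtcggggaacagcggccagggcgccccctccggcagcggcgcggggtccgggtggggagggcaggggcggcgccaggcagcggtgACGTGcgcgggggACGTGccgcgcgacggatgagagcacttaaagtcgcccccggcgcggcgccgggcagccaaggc
Aldoc: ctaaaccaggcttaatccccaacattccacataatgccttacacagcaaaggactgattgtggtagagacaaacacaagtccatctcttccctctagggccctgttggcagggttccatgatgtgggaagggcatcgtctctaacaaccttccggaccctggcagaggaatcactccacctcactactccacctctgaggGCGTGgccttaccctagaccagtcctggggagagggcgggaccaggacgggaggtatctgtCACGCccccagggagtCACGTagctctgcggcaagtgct
Pdk1: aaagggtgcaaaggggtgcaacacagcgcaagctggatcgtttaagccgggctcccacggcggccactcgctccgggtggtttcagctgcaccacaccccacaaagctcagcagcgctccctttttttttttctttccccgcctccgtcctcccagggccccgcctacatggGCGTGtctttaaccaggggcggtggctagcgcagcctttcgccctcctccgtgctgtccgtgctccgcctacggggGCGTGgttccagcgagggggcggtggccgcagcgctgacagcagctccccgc
Eno2: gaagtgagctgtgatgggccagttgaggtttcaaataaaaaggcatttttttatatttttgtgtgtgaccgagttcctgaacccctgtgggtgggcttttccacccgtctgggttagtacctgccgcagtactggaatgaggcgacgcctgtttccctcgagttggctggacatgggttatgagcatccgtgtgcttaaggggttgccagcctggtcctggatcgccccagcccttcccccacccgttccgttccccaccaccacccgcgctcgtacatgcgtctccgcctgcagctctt
The Slc2a1 window held a core 61 and another 36 bases before the start, and the Slc16a3 window held ACGTG 27 and 14 bases before it. The Eno2 window held neither core, nor did the other Pdk1 window. The upstream Ldha window, of a gene under 2-fold, held 5 ACGTG and 2 GCGTG matches, counted on either strand. Windows of Hk1, Pdha1 and Pdk3, also under 2-fold, held cores too. Slc16a3 and Eno2 passed the level filter on 1 array only, so a contrast of their windows is no support for a link. RefSeq promoters matched 36 of the 37 symbols, with 52 windows, some of which overlap, and Slc2a3 was not among them. Of these 52 windows, 39 (75%) held either core, against 43.8% of all 32851 promoter windows. Counted with or without the other core, ACGTG was in 40.4% against 19.6%, and GCGTG in 57.7% against 32.4%. The E-box CACGTG, a motif of Myc that contains ACGTG on each strand, was in 9.62% against 7.15%. These motifs hold a CpG, and the median GC content was 61.0% in the 52 windows and 52.7% in all windows. In windows of at least 60% GC the shares with either core were 90% (27 of 30) and 69.2% (6707 of 9690). At that GC content ACGTG was in 56.7% against 26.5%, while GCGTG was in 63.3% against 59.2%, so most of the gap in GCGTG was not seen there. Windows of genes at least 2-fold higher held either core in 8 of 9 cases, and those of genes under 2-fold in 25 of 35 (71.4%), with median GC contents of 65.3% and 61.0%. The 8 of 9 is close to the 90% of all the GC-rich windows of these genes, but the sets share windows and are not matched for GC. The 9 windows come from 7 genes, and both Aldoc windows and the second Pdk1 window were under 60% GC. A match is only a run of letters, and binding was not measured here.

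Glucose transporters were higher on every probe set that was above the level filter on both arrays. Slc2a1, the widely expressed basal glucose transporter, had 11.53 in wild type and 12.87 in Mof null. That is 2.53-fold, at rank 196 from the highest of 12015 expressed genes, and its 3 probe sets lay between 1.34 and 1.62 log2 units. Slc2a3, the high-affinity glucose transporter of neurons and early embryos, had 13.30 and 13.82 on its brightest probe set, a difference of 0.52. Its other 3 probe sets differed by 1.05, 1.73 and 1.79, starting from wild type values of 12.20, 5.03 and 6.70. The probe set at 5.03 passed the level filter in Mof null only and had to be higher, so it is no support. The brightest probe set put Slc2a3 under 2-fold, and those at 12.20 and 6.70 put it past 2-fold. The mean of all its probe sets was 1.27.

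Both measured lactate transporters were past 2-fold. Slc16a1, which carries lactate and pyruvate in either direction, had 11.03 and 12.24, again wild type first, or 2.32-fold. Its second probe set, below the level filter on both arrays (4.14 and 4.76), differed by 0.62, and the mean of the 2 probe sets was 0.92, under the 2-fold rule. Slc16a3, the exporter typical of strongly glycolytic cells, had 5.45 and 7.15, or 3.25-fold, and was read by 1 probe set. That probe set lay below the filter on the array labelled wild type, so Slc16a3 had to be higher. Its promoter window above holds 2 copies of ACGTG near the start, and a link to the difference was not tested.

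The hexokinases, which trap glucose in the cell, differed in opposite directions. Hk2, the isozyme prominent in muscle and in tumours, had 11.07 in wild type and 12.10 in Mof null, a difference of 1.03. This is close to the 2-fold line, and it became 0.93 after centring on the median gene, 0.91 after removal of a trend with level and 0.99 after renewed quantile normalization. Hk1, the housekeeping isozyme, had 9.79 and 9.52 on its brightest probe set, a difference of -0.28, and its other probe set, at 6.56 in Mof null, differed by -0.94. The Hk2 difference exceeded that of Hk1 by 1.31 log2 units.

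Among the phosphofructokinases, which catalyse the committed step, the platelet-type gene Pfkp stood above the others. Pfkp had 10.08 and 11.55 on its brightest probe set, or 2.76-fold, and its 3 probe sets differed by 1.46, 0.93 and 1.69. Pfkl, the liver-type gene, had 9.44 and 9.76 on its brightest probe set, a difference of 0.32, and its other probe sets differed by 0.58 and 0.93. Pfkm, the muscle-type gene, had 8.82 and 9.27, a difference of 0.44. The difference of Pfkp exceeded that of Pfkl by 1.14 and that of Pfkm by 1.02 log2 units. Using the mean of all probe sets, these became 0.75 and 0.92, under 2-fold. The lowest Pfkp probe set and the highest Pfkl probe set were nearly equal, at 0.93 each.

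The bifunctional enzymes that set fructose-2,6-bisphosphate, the activator of phosphofructokinase, were not higher. Pfkfb3 had 6.87 in wild type and 6.32 in Mof null, a difference of -0.55. Pfkfb4 had 6.58 and 6.47, a difference of -0.11. Both genes lay close above the level filter.

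Aldoc had the largest difference of all 32 genes, and Aldoa differed little. Aldolase cleaves fructose-1,6-bisphosphate into trioses; Aldoa is the muscle and housekeeping type and Aldoc the brain type. Aldoc had 6.50 and 8.61 on its expressed probe set, or 4.32-fold, at rank 30 from the highest of 12015. Its second probe set lay below the filter, at 3.66 and 3.75, and differed by 0.10. With the mean of both, Aldoc differed by 1.10. The 5 Aldoa probe sets agreed closely, with differences from 0.29 to 0.46, and the brightest went from 12.60 to 12.98. The Aldoc difference exceeded that of Aldoa by 1.73 log2 units on the brightest probe sets, and by 0.69, under 2-fold, on the means. Tpi1, which interconverts the trioses, went from 11.77 to 12.27, with 3 probe sets between 0.40 and 0.54.

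The abundant enzymes of lower glycolysis were slightly higher, none of them by 2-fold. Gapdh, which makes the first NADH of the pathway, had 13.97 and 14.06 on its 3' control probe set, 13.82 and 13.98 on the middle one, and 13.82 and 14.00 on the 5' one. The 3' probe set exceeded the 5' probe set by 0.15 in wild type and by 0.06 in Mof null. Pgk1, which makes the first ATP, went from 12.73 to 12.98, with 3 probe sets between 0.26 and 0.32. Pgam1, the widely expressed phosphoglycerate mutase, went from 12.16 to 12.38. Pkm, the pyruvate kinase of most proliferating cells, went from 12.77 to 12.85, a difference of 0.08 that turned negative (-0.02) after centring on the median gene. The probe set of Pkm does not tell its splice forms apart in the annotation used here. Whether array values near the top of the scale compress these differences was not tested. Among the 602 expressed genes with a mean level of at least 12, the median difference was 0.10. Of these genes, 6.64% were past 2-fold in either direction.

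Of the tissue-restricted isozymes of lower glycolysis, Eno3 and Pgam2 were higher at low level, both under 2-fold. Eno2, the neuronal enolase, had 6.76 in wild type and 5.18 in Mof null, a difference of -1.58, at rank 726 from the lowest of 12015. It had 1 probe set and was below the level filter on the array labelled Mof null, so it had to be lower. Eno3, the muscle enolase, had 7.71 and 8.41, a difference of 0.69, so the Eno2 difference minus that of Eno3 was -2.27 log2 units. Pgam2, the muscle mutase, had 6.34 and 6.97, a difference of 0.63, which was 0.41 above that of Pgam1.

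The lactate dehydrogenase genes were both modestly higher. Ldha, whose subunit favours lactate formation, went from 12.21 to 12.64, a difference of 0.43 on 1 probe set. Ldhb, the heart-type subunit, went from 10.74 to 11.51, a difference of 0.77, and its 4 probe sets lay between 0.64 and 0.77. All 4 Ldhb probe sets had larger differences than Ldha, by 0.20 to 0.34.

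**Figure D3:**
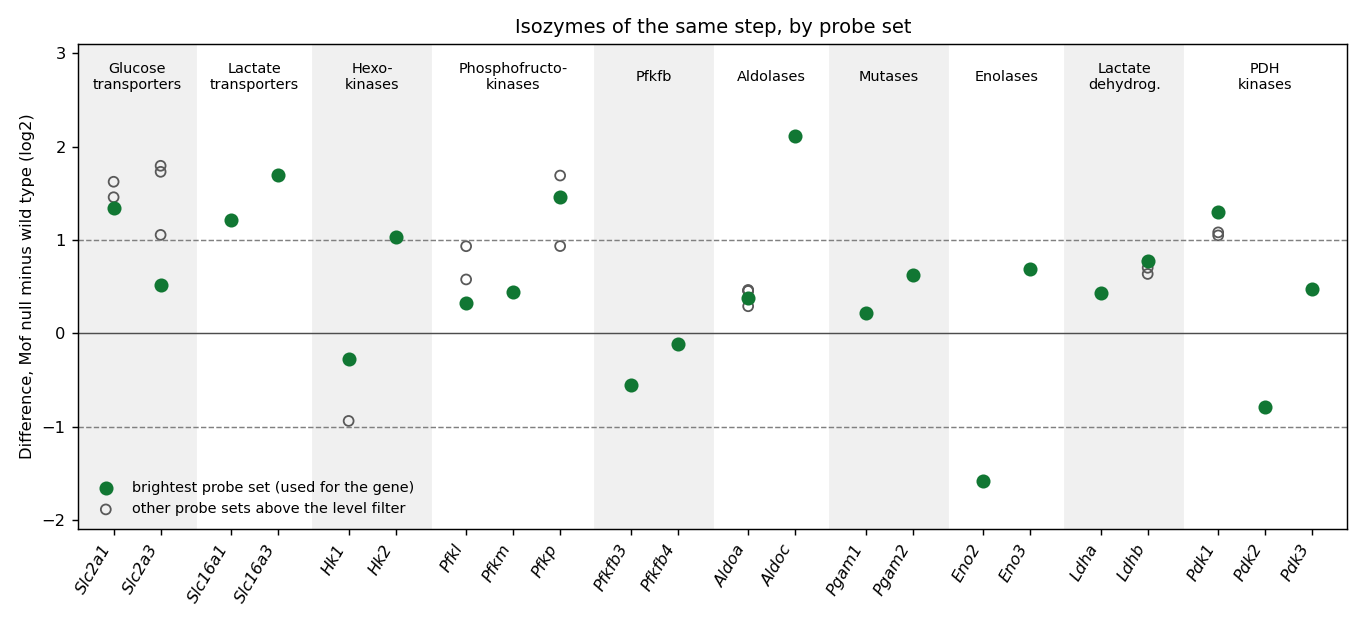
Difference (Mof null minus wild type, log2) of every expressed probe set of genes that encode isozymes of the same step; filled points are the brightest probe set of a gene, open points its other probe sets, and dashed lines mark 2-fold. Hk2 lies above Hk1, Aldoc above Aldoa and Pdk1 above Pdk3 without overlap, while the Slc2a1 and Slc2a3 probe sets overlap.

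Of the kinases that switch off pyruvate dehydrogenase, Pdk1 was past 2-fold and Pdk3 was not. Pdk1 had 9.45 and 10.75 on its brightest probe set, or 2.46-fold, and its 3 expressed probe sets lay between 1.05 and 1.30. A further Pdk1 probe set below the filter differed by 0.85, from 4.27 to 5.12. Pdk3 had 9.39 and 9.86, a difference of 0.47. Pdk2, the widely expressed kinase, had 6.24 and 5.45, a difference of -0.79, and was below the filter on the array labelled Mof null. The Pdk1 difference exceeded that of Pdk3 by 0.83 log2 units, and that of Pdk2, which had to be lower to pass on 1 array only, by 2.09.

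The pyruvate dehydrogenase subunits and the mitochondrial carrier did not follow Pdk1. Pdha1 (the catalytic alpha subunit) had 11.64 and 11.45, a difference of -0.19, and its dimmer probe set differed by 0.11. Pdhb, the beta subunit, went from 12.13 to 12.37, a difference of 0.24, and its dimmer probe set differed by 0.67. Dlat, the acetyltransferase core, went from 9.86 to 10.15, with 3 probe sets between -0.08 and 0.28. Mpc1, a subunit of the carrier that brings pyruvate into mitochondria, had 10.11 and 9.78, a difference of -0.32.

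The pentose phosphate genes showed no 2-fold difference. Pgd, of the oxidative arm that makes NADPH, was lower on all 4 probe sets, by -0.49 to -0.41, and its brightest went from 11.86 to 11.41. Tkt, the transketolase of the reversible arm, went from 13.00 to 13.30, and its probe sets differed by 0.30, 0.48 and, at the level filter, -0.38. Taldo1, the transaldolase of the same arm, had 11.96 and 11.93, a difference of -0.03.

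Across the 14 isozyme pairs that could be compared, 7 lay at least 1 log2 unit apart in their differences. Of all pairs of expressed genes, 32.5% were that far apart. The 7 pairs share genes, since Pfkp is in 2 of them, Pdk1 and Pdk3 are in 1 each with Pdk2, and Eno2, Hk2 and Aldoc are in 1 each. Of the 7, 3 rest on Eno2 or Pdk2, which passed the level filter in wild type only and had to be lower in Mof null. Among the 10 pairs whose genes passed on both arrays, 4 were that far apart. On the mean of all probe sets, 4 of all 14 pairs were, and both Pfkp pairs and the Aldoc pair were not. The 4 were Hk2 minus Hk1 and the 3 pairs that rest on Eno2 or Pdk2. Thus only Hk2 minus Hk1 stayed that far apart among the 10 pairs above. These contrasts compare differences only, because levels of different probe sets are not comparable.

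Neighbouring pathways had medians below the 0.35 of the 32 genes. Of the groups above, lower glycolysis, pyruvate entry and the pentose phosphate pathway also lay below it, at 0.34, 0.24 and -0.03. Of 19 expressed citric acid cycle genes, 1 was at least 2-fold higher and 0 lower, with a median of 0.17. That gene was Idh2, the mitochondrial NADP-linked isocitrate dehydrogenase, from 9.54 to 10.67. Among 8 other genes of the pyruvate dehydrogenase step, 1 was higher and 0 were lower, with a median of 0.15. Of 20 other genes of glycolysis and the pentose phosphate pathway, 3 were higher and 0 lower, with a median of 0.12. In the last list 17 of the 20, and in the next 8 of the 11, passed the filter on both arrays. Of 11 genes of gluconeogenesis and glycogen, 0 were higher and 1 was lower, namely Gyg, the glycogen primer glycogenin, from 10.56 to 9.22, and the median was -0.15. Over all expressed genes, 5.09% were at least 2-fold higher, 11.9% were lower by that rule, and the median was 0.10.

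Genes known to be induced by low oxygen, outside those above, were uneven. Of 20 expressed genes of this list, which includes HIF subunits, 4 were at least 2-fold higher and 0 lower, with a median of 0.27. Over all expressed genes these shares were 5.09% and 11.9%. Of the 20, 19 passed the filter on both arrays, and Ankrd37 passed in Mof null only and had to be higher. Bnip3, a mitophagy receptor, went from 8.92 to 11.09, Egln3, an oxygen-sensing prolyl hydroxylase, from 6.64 to 8.74, Ankrd37 from 4.91 to 7.67 and Stc2 from 6.99 to 8.36. Vegfa, the angiogenic growth factor, differed by 0.22, and the oxygen-regulated HIF subunits went opposite ways. Hif1a had 12.28 and 11.77, a difference of -0.51, and Epas1 had 11.41 and 12.14, a difference of 0.72. The list was chosen with earlier results of these data known, and Bnip3, Egln3 and Ankrd37 were already known to be high.

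Markers of other cell types differed between the arrays at the same time. All 21 measured fibroblast markers were lower on the array labelled Mof null, 20 of them at least 2-fold, with a median of -1.93. Their summed signal on the linear scale was 148833 in wild type and 45017 in Mof null. All 16 expressed macrophage markers were lower, 14 at least 2-fold, with a median of -2.03 and summed signals of 18554 and 5391. Of the 16, 14 passed the filter on both arrays, while Ptprc and Itgam passed in wild type only and had to be lower. No marker of either list could be called absent, since RMA values have no zero. All 15 stem cell markers had a positive difference, though that of Klf4 and Klf2 was only 0.02 each, and 2 were at least 2-fold higher. The median of the 15 was 0.60. Relative to that median, the median of the 32 glycolysis, pyruvate and pentose phosphate genes was -0.25, and only Slc16a3 (1.10) and Aldoc (1.51) stayed at least 2-fold higher. On that scale Pfkfb3, Eno2, Pdk2 and Pgd were at least 2-fold lower. Such a shift cancels in the isozyme contrasts by arithmetic, so it says nothing about the part of the cell mixture in them. The part of the cell mixture in the differences was not tested, and fewer cells of a type and less RNA per cell cannot be told apart in bulk RNA.

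**Figure D4:**
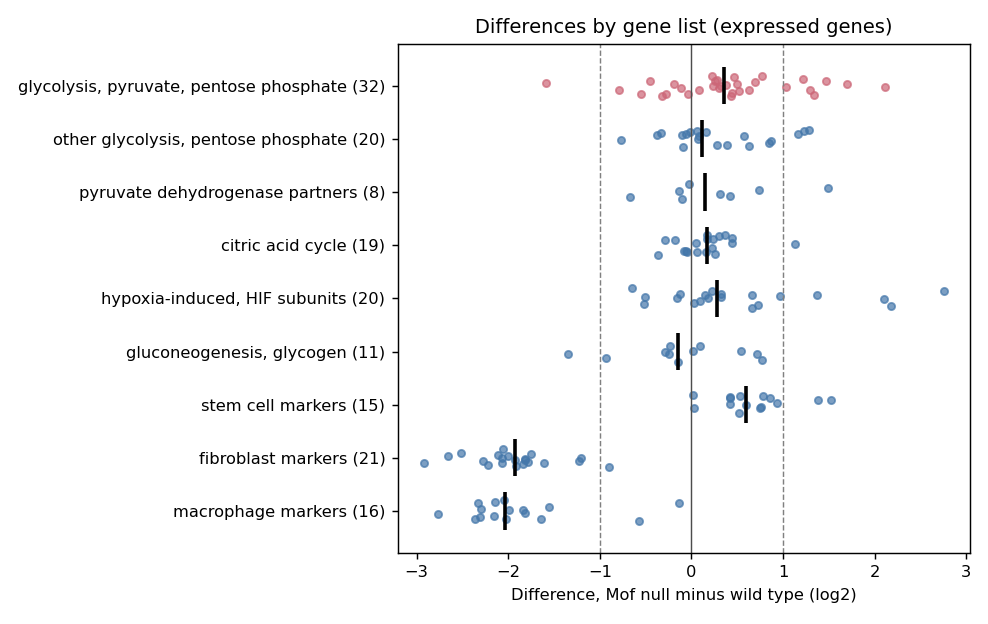
Difference (Mof null minus wild type, log2) of the expressed genes of each list, with the number of genes in brackets; each point is a gene, black bars are medians and dashed lines mark 2-fold. The glycolysis, pyruvate and pentose phosphate genes have a median of 0.35, the stem cell markers 0.60, and the fibroblast and macrophage markers -1.93 and -2.03.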

How the data were processed

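Total RNA of 1 wild type and 1 Mof null culture was measured on 1 array each, and the authors deposited log2 values of 45101 probe sets. The submitters' processing notes name RMA, the package affy and R 2.10.0. RMA corrects background, quantile-normalizes and summarises probes, which hides any shift that most transcripts share. Other arrays of the same run, if any, were not used here. The use of 1 array per genotype limits the precision.

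The platform annotation lists 35890 probe sets, 34958 with 1 gene symbol, 932 with several and 9211 not listed. Array controls were left out of gene values. A gene took its probe set with the highest mean, giving 18193 genes, of which 12015 passed a level filter at percentile 50 of all values (6.02). A gene was counted at a difference of 1 log2 unit (2-fold). No test was run. Named are all 33 genes found, Kat8, and of other lists at most 4 genes past 2-fold. Vegfa, Hif1a, Epas1, Klf2, Klf4, Ptprc, Itgam and the genes under other observations that are not past 2-fold were chosen after their values were seen. The genes and lists were chosen with earlier results of these data known. Promoters came from RefSeq (GRCm38.p6). The counting was tested on simulated data. Python 3.11.15, numpy 2.4.6, pandas 2.3.3, statsmodels 0.14.6 and matplotlib 3.10.9 were used.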

Additional observations from a re-analysis of the deposited data

How the results depend on the processing

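With 1 array per genotype, no difference has a replicate error, and leaving out an array was not possible. No paired analysis was possible because each genotype has a single sample. A value was taken as moved when it shifted by at least 0.33 log2 units, the SD between probe sets of a gene, and a count when it changed by over 1.5 times. The median difference of 0.35 lay between 0.25 and 0.48 under the mean of probe sets, leaving out suffixed probe sets, other level filters, centring, trend removal, quantile normalization and leaving out Aldoc, and was -0.25 relative to the stem cell markers. The count of 7 higher genes was 6 or 7 under these choices, though Slc2a3 entered and Slc16a1, Slc16a3, Hk2 or Aldoc left it under some of them; it was 10 by a 1.5-fold rule, 2 relative to the stem cell markers and 1 (Aldoc) by a 4-fold rule. The count of 1 lower gene became 0 without probe sets that end in _s_at, _x_at or _a_at, with the filter at percentile 75 and at 4-fold. It became 2 at 1.5-fold and 4 relative to the stem cell markers. On the mean of all probe sets, Slc2a1 minus Slc2a3 moved from 0.82 to 0.20, Pfkp minus Pfkl from 1.14 to 0.75 and Aldoc minus Aldoa from 1.73 to 0.69. With the suffixed probe sets left out, Slc2a1 minus Slc2a3 became -0.17, Pfkp minus Pfkl 0.53 and Pfkm minus Pfkl -0.49, and Aldoc, left with its dim probe set, differed by 0.10. Pfkp minus Pfkm, at 1.02, became 0.97 after trend removal and 0.98 after quantile normalization. Causes other than the change of probe sets were not tested.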

Other observations

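Of the other glycolysis and pentose phosphate genes, Ldhc, Tktl1 and Hkdc1 were past 2-fold in the sample labelled Mof null, and of the pyruvate dehydrogenase partners Pdha2 was. Ldhc, the lactate dehydrogenase of sperm, went from 6.52 to 7.69 (2.24-fold), and Pdha2, the testis form of the pyruvate dehydrogenase alpha subunit, from 6.73 to 8.22 (2.81-fold), while its somatic counterpart Pdha1 differed by -0.19. Tktl1, a transketolase-like gene, went from 6.84 to 8.06, and Hkdc1, a hexokinase-like gene, from 7.53 to 8.82. Of other sperm-type isozymes, Gapdhs had 5.83 and 6.11, and Pgk2 had 3.64 on both arrays, below the level filter.

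Probe sets that the annotation assigns to several genes were left out of all counts. For Gapdh these were 3 probe sets that also match other genes, with differences of 0.09, 0.25 and 0.43, and for Hk1 there was 1, with a difference of 0.09.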
